A study of Mus musculus with 19 samples.

Results

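Whole lung of mice labelled Etv5KO was compared with whole lung of control mice across all genes. The comparison took every library whose label names lung and 1 of the 2 genotypes, which gave 10 of the 19 libraries of the study, 5 control and 5 labelled Etv5KO. The other 9 libraries, 4 control and 5 labelled Etv5KO, hold sorted alveolar type II (AT2) cells. They served to look up genes that differed in lung, to pick genes to look up in lung, and to compare effects and levels. Each library was made from polyadenylated RNA and sequenced. Control mice carried SpcCreERT2, a Cre recombinase driven by the promoter of surfactant protein C and active only with tamoxifen, and the Cre reporter RosatdTomato. Mice labelled Etv5KO carried both of these and Etv5ko/loxp, that is 1 knockout allele and 1 loxP-flanked allele of Etv5. Mice of both genotypes were given tamoxifen at 100 mg/kg on 5 days and then left for 5 days. The Cre is made only where the surfactant protein C promoter is active, whereas the knockout allele is carried by every cell of the lung and has no counterpart in the controls. The labels give neither the age of the mice nor which lung library and which AT2 library came from the same mouse, so p-values measure the spread between these libraries and no pairing was used.

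Etv5 encodes a transcription factor of the PEA3 group of the ETS family, proteins that bind DNA around the core letters GGAA and whose genes are induced by fibroblast growth factor and ERK signalling. In the alveolus it is made mainly by AT2 cells, the cuboidal cells that produce, store in lamellar bodies and secrete surfactant, a film of phospholipids and surfactant proteins, and that give rise to the thin AT1 cells lining the air space. Whole lung mixes these cells with airway epithelium, endothelium, fibroblasts, muscle and blood cells. In such a mixture fewer cells of a type and less RNA per cell cannot be told apart.

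The 5 control lung libraries held 14971793 to 26989453 counts and the 5 labelled Etv5KO 20332410 to 22478603. Levels are given as CPM, the count of a gene scaled to the size of its library. Markers fitting whole lung were present: Scgb1a1, the secretory protein of airway club cells, took 1.44% to 2.68% of counts in control libraries and 1.74% to 2.4% in libraries labelled Etv5KO, and Sftpc, which encodes surfactant protein C, stood at 9227 ± 1255 CPM in controls (SD, n = 5). Krt5, a marker of basal cells of the large airways, was at 0 in all lung libraries. On the first principal component, 24.2% of the variance, control library 1 lay at -29.4 while the other controls lay between 10.4 and 21.3 and the libraries labelled Etv5KO between -22.8 and 4.91. Left out, it raised the number of genes past the threshold from 71 to 80.

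Etv5 itself (Entrez Gene 104156), the gene the alleles target, showed no fall in lung labelled Etv5KO. It stood at 105, 118, 123, 126 and 116 CPM in the 5 control libraries and at 135, 127, 107, 135 and 134 CPM in the 5 libraries labelled Etv5KO. The groups overlapped. The means were 117 ± 8.25 and 128 ± 12.1 CPM (SD, n = 5 each), a log2 difference of 0.12 (SE 0.08, 95% interval -0.05 to 0.29, adjusted p = 0.978). In sorted AT2 cells the log2 difference was 0.10 (adjusted p = 0.505). A count per gene does not show which exons were read, so it does not check the genotype labels, and every direction given here rests on those labels.

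Of 17098 genes tested in lung, 71 passed the edgeR test at an adjusted p under 0.05, which is 0.415% of them; 35 were higher in libraries labelled Etv5KO (0.205%) and 36 were lower (0.211%). DESeq2, which passed 197 genes, split them into 123 higher and 74 lower. At least 2-fold differences were seen for 15 of the higher and 17 of the lower genes. In all 71 the values of the 5 control and 5 labelled Etv5KO libraries did not overlap, as in 1.55% of all genes tested. The median log2 difference over all genes tested was -0.01. Leaving out any 1 library reversed the direction of none of the 71, but 32 of them lost the call when at least 1 library was left out and 39 kept it with each of the 10 left out in turn; the number of genes past the threshold lay between 44 (without control library 4) and 80 (without control library 1) and was 47 without control library 3.

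Enzymes and carriers of fatty acids were among the clearest falls. Acoxl (Entrez Gene 74121), which encodes an acyl-CoA oxidase-like protein, stood at 99.6, 113, 124, 144 and 116 CPM in the control libraries and at 11.9, 17.1, 16.2, 26.5 and 25.4 CPM in those labelled Etv5KO. Every control library was thus far above every library labelled Etv5KO. The means, 119 ± 16.5 and 19.4 ± 6.26 CPM, gave a 6.14-fold lower level (log2 difference -2.62, SE 0.20, adjusted p = 0.000145). Elovl1, the elongase of very long chain fatty acids, stood at 453, 410, 384, 541 and 336 CPM in control libraries and at 180, 186, 175, 201 and 174 CPM in the others. Its groups did not overlap and the mean fell from 425 ± 77.8 to 183.0 ± 11.1 CPM (log2 difference -1.21, adjusted p = 0.00036). Acot7, a thioesterase that frees fatty acids from coenzyme A, fell from 128 ± 16.8 to 54.4 ± 6.68 CPM (log2 difference -1.23, adjusted p = 0.000221), with libraries between 115 and 156 in controls and between 45.5 and 63.3 in lung labelled Etv5KO. Fabp5, a fatty acid binding protein, fell from 20.8 ± 3.44 to 8.09 ± 2.36 CPM (log2 difference -1.37, adjusted p = 0.00502). Gpam, the mitochondrial enzyme that adds the first fatty acid to glycerol 3-phosphate, went the other way: control libraries held 179, 203, 223, 191 and 220.1 CPM and those labelled Etv5KO 384, 384, 365, 396 and 406 CPM. Gpam rose 1.9-fold with little spread in either group (log2 difference 0.93, SE 0.07, adjusted p = 0.000145). On the per-length scale of the authors' RPKM, Elovl1 at 113 was the highest of these 5 in control lung, followed by Acot7 at 46.9, Gpam at 23.6, Fabp5 at 18.7 and Acoxl at 18.4; the last pair are close. These 5 were the members past the threshold of the 24 genes listed for fatty acid and surfactant phospholipid synthesis, 4 lower and 1 higher. The median of the list was -0.05. Of all genes tested 0.415% passed. The list was drawn up with earlier results of these data known, so its count is a description with no test. Scd1, Fasn and Lpcat1, the list's most abundant members, which make monounsaturated fatty acids, palmitate and surfactant phosphatidylcholine, had log2 differences of 0.05, 0.28 and -0.37 with adjusted p of 0.992, 0.978 and 0.342.

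Promoters are shown for 4 of the genes with the largest differences because Etv5 is an ETS factor: the 250 bases before the RefSeq start (GRCm38.p6) of Acoxl at chr2:127854378-127854627 on the plus strand, and of Bex2 at chrX:136068237-136068486, Lcn2 at chr2:32387740-32387989 and Slc15a1 at chr14:121505255-121505504, all on the minus strand. Capitals mark matches to the ETS letters CCGGAA or CAGGAA on either strand, so TTCCTG is CAGGAA on the opposite strand. The strings differ in their second letter, so the same letters cannot match both.
Acoxl: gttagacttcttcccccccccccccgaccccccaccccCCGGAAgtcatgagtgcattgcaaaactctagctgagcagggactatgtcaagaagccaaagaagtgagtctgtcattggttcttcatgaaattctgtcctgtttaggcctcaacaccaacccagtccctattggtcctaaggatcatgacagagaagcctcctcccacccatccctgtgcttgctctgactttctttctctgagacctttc
Bex2: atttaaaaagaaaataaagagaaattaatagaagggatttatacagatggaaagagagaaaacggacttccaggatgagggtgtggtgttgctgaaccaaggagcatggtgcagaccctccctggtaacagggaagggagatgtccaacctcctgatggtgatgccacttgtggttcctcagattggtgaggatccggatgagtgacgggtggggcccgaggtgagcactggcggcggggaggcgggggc
Lcn2: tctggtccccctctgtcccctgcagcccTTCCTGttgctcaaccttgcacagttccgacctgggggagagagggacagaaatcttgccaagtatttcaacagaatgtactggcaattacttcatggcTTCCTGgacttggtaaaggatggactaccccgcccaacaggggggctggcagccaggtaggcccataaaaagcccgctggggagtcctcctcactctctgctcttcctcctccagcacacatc
Slc15a1: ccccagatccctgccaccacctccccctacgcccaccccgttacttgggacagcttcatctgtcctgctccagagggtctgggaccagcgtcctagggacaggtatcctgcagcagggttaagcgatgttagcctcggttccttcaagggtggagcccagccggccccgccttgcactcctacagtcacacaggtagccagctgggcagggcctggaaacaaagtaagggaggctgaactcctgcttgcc
Acoxl holds CCGGAA once, starting 212 bases before the start of the gene, and Lcn2 holds CAGGAA at 222 and 123 bases before it. Bex2 and Slc15a1 hold neither in this window, nor do Trpv6, Mfsd2a and Slc26a4. Of the genes past the threshold that have a promoter in the table, 9 of 30 higher genes (30%) and 9 of 31 lower genes (29%) held either string, beside 43.7% of the 12561 genes tested in lung that have one and 38.2% of all 27025 genes in the table. A match describes the letters and is not a measured binding site.

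The largest fall was that of Hes2, a transcriptional repressor of the Hairy and Enhancer-of-split family. It stood at 2.91, 11.8, 6.59, 9.69 and 8.22 CPM in control libraries and at 0.225, 0.480, 0.218, 0.425 and 0.286 CPM in those labelled Etv5KO. Every library labelled Etv5KO was under 1 CPM and the log2 difference was -4.57 (SE 0.40, adjusted p = 0.000268). Bex2, a small protein of the brain-expressed X-linked family, fell from 23.4, 26.3, 24.8, 32.1 and 20.2 CPM to 2.21, 2.49, 4.09, 4.72 and 5.95 CPM, a 6.52-fold lower mean (adjusted p = 0.000268). Its relative Bex1 fell from 1.63 ± 0.24 to 0.766 ± 0.131 CPM (log2 difference -1.08, adjusted p = 0.0221). Bex1 and Bex2 were the members past the threshold of 7 tested in the Bex and Tceal family, beside 0.415% of all genes tested. That list too was drawn up with earlier results known. Its more abundant members Tceal9, Tceal8 and Bex3 had log2 differences of 0.03, -0.10 and 0.14. Bex1 lost its call without control library 3, 4 or 5 or the library labelled Etv5KO 2, 3 or 4 (adjusted p up to 0.0736).

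Several falls were in proteins of the cell surface. Trpv6, the calcium-selective channel of absorbing epithelia, stood at 8.79, 9.56, 10.8, 8.88 and 5.38 CPM in control libraries and at 2.16, 1.34, 1.96, 2.83 and 1.71 CPM in those labelled Etv5KO. The lowest control was above the highest of the other group, and the log2 difference was -2.12 (SE 0.22, adjusted p = 0.000821). Nrn1, the GPI-anchored protein neuritin, fell from 18.3 ± 4.69 to 3.25 ± 0.83 CPM (log2 difference -2.50, adjusted p = 0.000221). Gjb1, the gap junction protein connexin 32, fell from 2.56 ± 0.58 to 0.581 ± 0.379 CPM (log2 difference -2.15, adjusted p = 0.0166). Shisa6, an accessory protein of AMPA receptors, fell from 3.04 ± 1.03 to 0.811 ± 0.134 CPM (log2 difference -1.89, adjusted p = 0.0057). The Gjb1 call was lost without control library 4 or the library labelled Etv5KO 3 (adjusted p up to 0.0571). The other genes listed for calcium and ion transport did not pass, 11 of 12 tested, where 0.415% of all genes tested passed. The list was drawn up with earlier results of these data known, and its median was -0.05.

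Of the remaining large falls, Lcn2 encodes lipocalin 2, which binds bacterial iron siderophores. It stood at 197, 106, 82.1, 117 and 81.4 CPM in control libraries and at 38.2, 51.2, 38.6, 51.8 and 50.7 CPM in those labelled Etv5KO. The groups did not overlap, although control library 1 was far above the other controls, and the log2 difference was -1.34 (adjusted p = 0.0237). The Lcn2 call was lost without control library 2 or 4 or the library labelled Etv5KO 1, 2, 3 or 5 (adjusted p up to 0.0702). Gm32057, a long noncoding RNA gene that overlaps Cox4i2, fell with a log2 difference of -1.25 (adjusted p = 0.00352), whereas Cox4i2 differed by -0.08. Itih1, a heavy chain of the inter-alpha-trypsin inhibitor, fell by 1.22 (adjusted p = 0.0057) and C2cd4b by 1.16 (adjusted p = 0.0103) on the log2 scale. Elovl1 overlaps Cdc20 and Acoxl overlaps Bcl2l11. Whether counting used strand is not given in the sources used here, so reads in the shared stretch cannot be told apart; Cdc20 and Bcl2l11 themselves had log2 differences of 0.45 (adjusted p = 0.978) and -0.15 (adjusted p = 0.832).

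**Figure D1:**
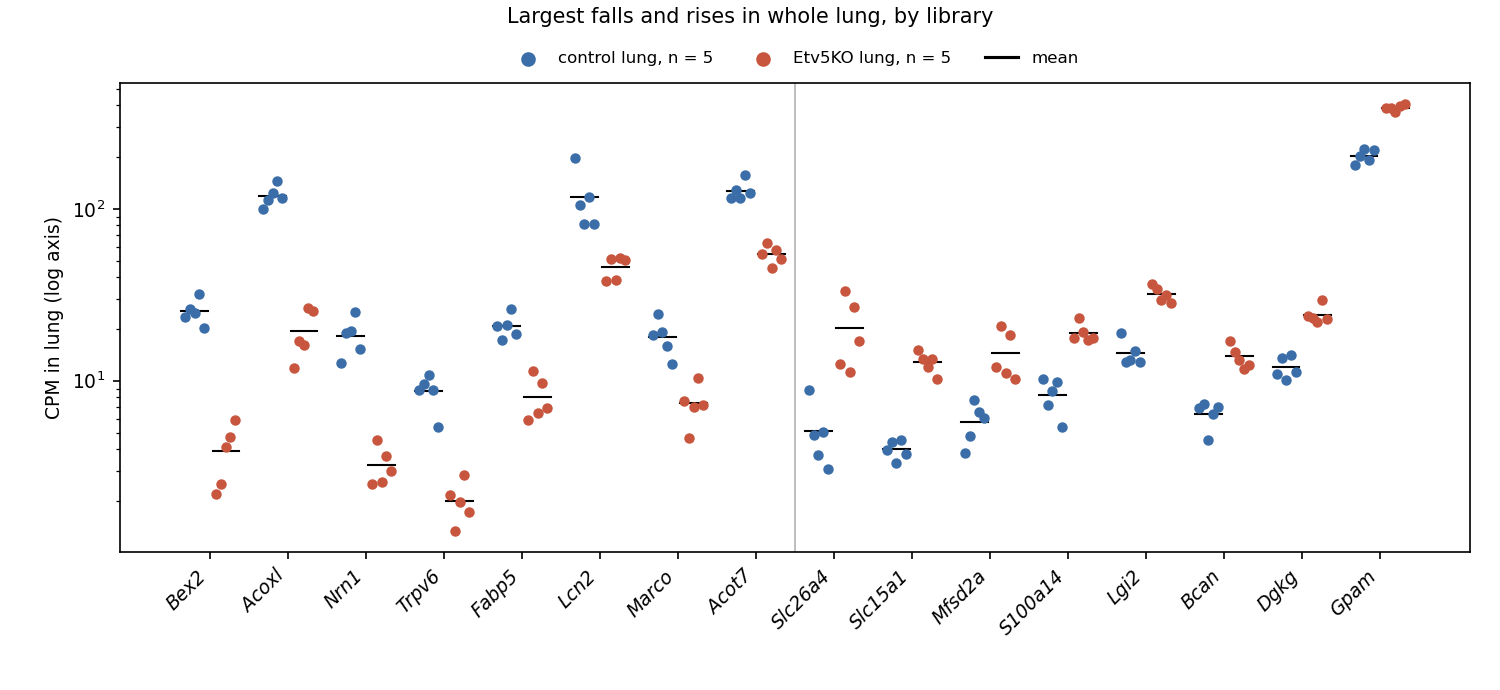
CPM (log axis) in each lung library for the 8 largest falls (left of the line) and 8 largest rises (right) that passed the threshold, taken from genes with 5 CPM or more on average. Points are libraries, blue for control and red for labelled Etv5KO, and black bars are means. The groups overlap in none of the 16 genes; Acoxl lies between 99.6 and 144 in controls and between 11.9 and 26.5 in the other group.

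Among the genes that rose were 3 that encode membrane transporters, Slc15a1, Slc26a4 and Mfsd2a. Slc15a1, the proton-coupled peptide transporter PEPT1, stood at 3.96, 4.41, 3.31, 4.54 and 3.75 CPM in control libraries and at 15.04, 13.4, 11.97, 13.4 and 10.2 CPM in those labelled Etv5KO. The groups were well apart, with a 3.21-fold higher mean (log2 difference 1.68, SE 0.13, adjusted p = 0.000145). Slc26a4, the anion exchanger pendrin, stood at 8.88, 4.82, 3.69, 5.03 and 3.08 CPM in controls and at 12.5, 33.1, 11.2, 26.98 and 16.99 CPM in the other group. Its libraries labelled Etv5KO ranged from 11.2 to 33.1 and the log2 difference was 1.98 (SE 0.35, adjusted p = 0.0305). Mfsd2a, a sodium-dependent carrier of lysophosphatidylcholine, rose from 5.78 ± 1.53 to 14.5 ± 4.79 CPM (log2 difference 1.32, adjusted p = 0.035). Both calls were lost without control library 2, 4 or 5 or the library labelled Etv5KO 2 or 4, Slc26a4 also without control library 3 or Etv5KO 5 (adjusted p up to 0.105) and Mfsd2a also without control library 1 or Etv5KO 1 (up to 0.101). With limma-voom the adjusted p was 0.0677 for Slc26a4 and 0.0631 for Mfsd2a.

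Other large rises came from genes of varied function. Myom2, a structural protein of the M-band of muscle, stood at 0.430, 0.803, 0.533, 0.730 and 0.483 CPM in control libraries and at 2.25, 2.45, 2.53, 2.45 and 2.24 CPM in those labelled Etv5KO. The groups were apart and tight (log2 difference 2.00, adjusted p = 0.000327). Of the heart and skeletal muscle markers 6 and 3 were tested and none passed, beside 0.415% of all genes tested. Their medians were 0.18 and -0.06, with 4 of the 6 and 1 of the 3 positive. Which cells the rise of Myom2 comes from was not tested. Lgi2, a secreted leucine-rich repeat protein, rose from 14.6 ± 2.60 to 31.9 ± 3.34 CPM (log2 difference 1.13, adjusted p = 0.000821). Bcan, the proteoglycan brevican, rose from 6.44 ± 1.12 to 13.9 ± 2.12 CPM (log2 difference 1.11, adjusted p = 0.00438). S100a14, an EF-hand protein of epithelia, rose from 8.28 ± 2.01 to 19.04 ± 2.46 CPM (log2 difference 1.19, adjusted p = 0.00502). Sema4f, a transmembrane semaphorin, rose from 35.3 ± 4.98 to 64.8 ± 6.95 CPM (log2 difference 0.88, adjusted p = 0.00192). The rises of D6Ertd527e (1.63, adjusted p = 0.0096), Dio3os, a transcript opposite to Dio3 (1.12, adjusted p = 0.0347), and Zmat4, a zinc finger protein (1.06, adjusted p = 0.0305), complete this group. Dio3os lost its call without control library 1, 2, 3 or 4 or the library labelled Etv5KO 1, 2, 3 or 5 (adjusted p up to 0.112), and Zmat4 without any 1 control library or Etv5KO 2, 4 or 5 (up to 0.0859) or with limma-voom (0.0533).

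The other 41 genes past the threshold had smaller differences or lower levels, and those named in this paragraph were chosen after their values were seen. Of 21 lower genes, with log2 differences between -1.13 and -0.42, Cebpa, a transcription factor that AT2 cells need to mature, fell from 211 ± 17.8 to 145 ± 20.1 CPM (log2 difference -0.54, adjusted p = 0.0305). Atp6v1c2, a subunit of the proton pump that acidifies vesicles, fell from 61.3 ± 7.76 to 34.4 ± 2.81 CPM (-0.83, adjusted p = 0.00106). The peptidases Cpm (carboxypeptidase M) and Anpep (aminopeptidase N) fell by 0.77 (adjusted p = 0.00197) and by 0.69 (adjusted p = 0.0057) on the log2 scale, and Pla2g1b, a secreted phospholipase A2, fell by 0.71 (adjusted p = 0.00543). Of 20 higher genes, Abcd3, a membrane protein that carries acyl-CoA into peroxisomes, rose from 186 ± 12.9 to 271 ± 15.1 CPM (log2 difference 0.55, adjusted p = 0.00214). Sgpp2, a sphingosine 1-phosphate phosphatase, rose from 58.1 ± 6.30 to 95.9 ± 13.9 CPM (0.72, adjusted p = 0.0105). St3gal5, the synthase of ganglioside GM3, rose by 0.50 (adjusted p = 0.00106). Gm31418, at 0.330 ± 0.117 CPM in controls and 1.33 ± 0.15 in the others, lies across Gpam, so its rise (2.03, adjusted p = 0.00106) cannot be told apart from reads of Gpam. The remaining lower genes were Galnt13, Arg2, Nipal1, Rprm, Aif1l, Krt23, Tmem42, Macc1, Epha7, Snx25, Tmem164 and Pgap6, and the remaining higher genes Steap2, Rem2, Lypd6b, Mal, Tmem163, Mrps9, Mapk13, Plekhd1, Gstt1, Pi4k2b, Clec16a, Pgm1 and Fig4. Of these, Galnt13, Rprm, Tmem42, Macc1, Tmem164, Tmem163, Mrps9 and Gstt1 kept the call with each library left out and the others lost it without at least 1. Cebpa lost its call without control library 2, 3, 4 or 5 or the library labelled Etv5KO 1, 2, 3 or 5 (adjusted p up to 0.102) and in the fit with all 19 libraries (0.0626).

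AT2 marker genes had log2 differences of both signs. Of 20 markers tested, 2 passed (0.415% over all genes), both lower, and 10 had an unadjusted p under 0.05, beside 944 of the 17098 genes tested (5.52%). Their log2 differences ran from -0.86 for Chil1 to 0.76 for Il33 around a median of -0.11, and DESeq2 passed 7 of the 20. Their summed level was 34582 to 45142 CPM in control libraries and 29743 to 42348 CPM in those labelled Etv5KO. Sftpa1, which encodes surfactant protein A and had the highest per-length level among the 71 genes in control lung (1586 RPKM), stood at 4294, 4619, 5743, 5589 and 5537 CPM in controls and at 3340.0, 2962, 2336, 3572 and 2817 CPM in the other group. The groups did not overlap and the log2 difference was -0.78 (SE 0.14, adjusted p = 0.0305). Sftpc and Sftpb, which encode the hydrophobic surfactant proteins, did not pass: 9227 ± 1255 against 9457 ± 1294 CPM for Sftpc (log2 difference 0.04, 95% interval -0.27 to 0.34, adjusted p = 0.992) and 5333 ± 594 against 4502 ± 627 CPM for Sftpb (-0.24, adjusted p = 0.961). Lyz2, lysozyme, had a log2 difference of -0.38 (adjusted p = 0.442 with edgeR and 0.0243 with DESeq2). Dram1, a lysosomal membrane protein linked to autophagy, fell from 508 ± 33.8 to 381 ± 32.1 CPM (log2 difference -0.42, adjusted p = 0.0354). Neither the Sftpa1 call nor the Dram1 call held with each library left out in turn. Each was lost without control library 2, 3, 4 or 5 or the library labelled Etv5KO 1, 2, 3 or 5. The adjusted p was up to 0.102 for Sftpa1 and 0.121 for Dram1. Dram1 also lost its call with the authors' size factors (adjusted p = 0.0557). Over all settings the log2 difference lay between -0.849 and -0.701 for Sftpa1 and between -0.460 and -0.375 for Dram1.

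In the lists of other cell types few members passed, as over all genes tested (0.415%). None of 20 AT1 markers passed and their median was 0.13; the most abundant, Ager, Emp2 and Cav1, had log2 differences of 0.28, 0.13 and -0.02. Of 16 genes listed for transitional alveolar epithelial cells, Lcn2 and Nupr1 passed, both lower, and the median was 0.06. Nupr1, a small stress-induced chromatin protein, fell from 79.7 ± 7.01 to 56.6 ± 5.15 CPM (log2 difference -0.49, adjusted p = 0.0166), a call that was lost without control library 2, 3, 4 or 5 or the library labelled Etv5KO 3 (adjusted p up to 0.0605) and in the fit with all 19 libraries (0.529). In all, 16 of 19 cell type lists, with 146 members tested, had no member past the threshold with edgeR. Of these members 10 had an unadjusted p under 0.05, beside 944 of the 17098 genes tested (5.52%). DESeq2 passed 3 of them, Cldn18 and Col14a1 included, beside 197 of all genes tested, and limma-voom passed 0. The medians of these lists lay between -0.23 for neutrophils and 0.26 for mesothelial cells. Fibroblast and matrix genes had a median of 0.25 with none of 17 past the threshold, and their summed level was 5359 to 9955 CPM in controls and 5168 to 9518 CPM in lung labelled Etv5KO. Markers of airway secretory cells (0 of 11), ciliated cells (0 of 12), endothelium (0 of 16) and lymphocytes (0 of 14) also held none. A list of this size that holds none does not show that its cells are unchanged.

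**Figure D2:**
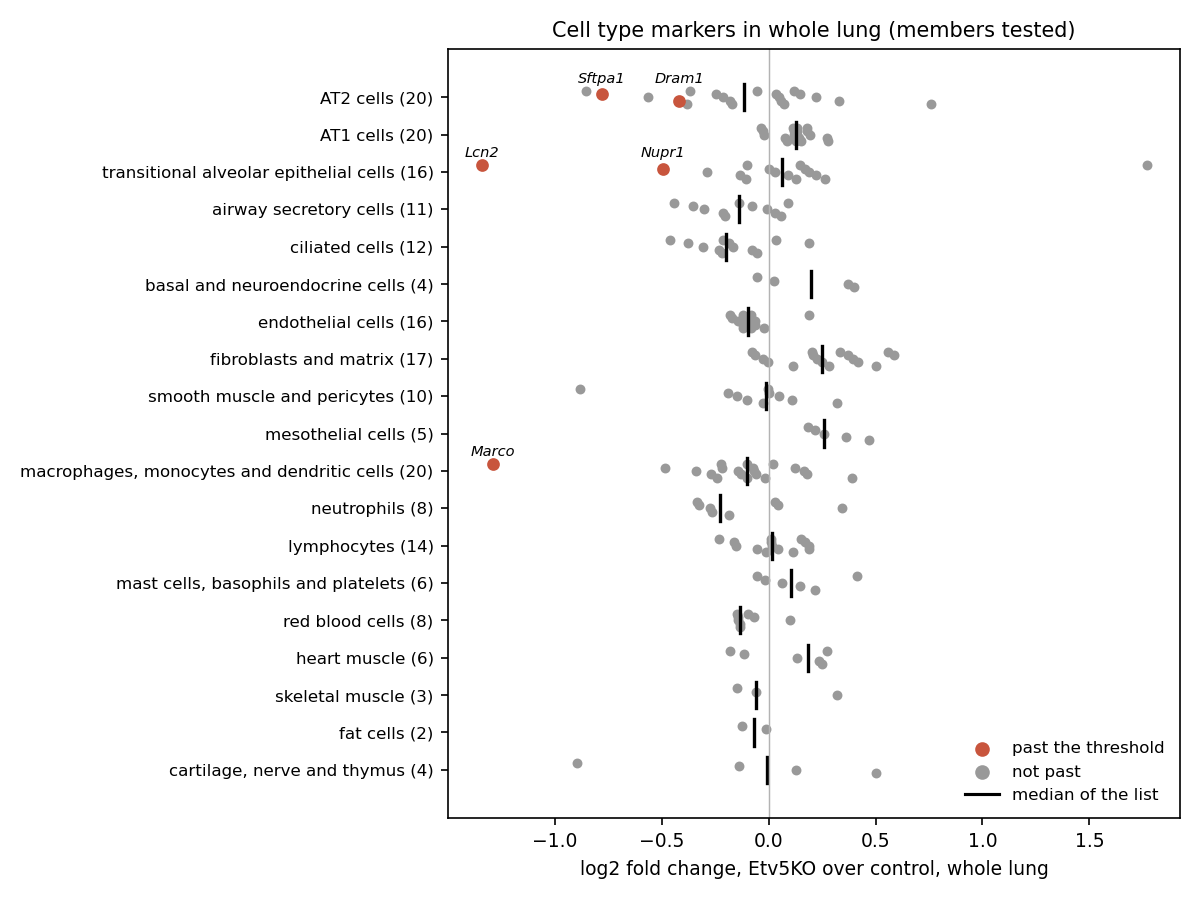
Log2 fold change in whole lung (libraries labelled Etv5KO over control) of the members of 19 cell type lists, with the number of members tested in brackets. Each point is a gene, red where it passed the threshold with edgeR, and black bars are list medians. The AT2, transitional and macrophage lists hold the 5 red points, and the medians of the other lists lie between -0.23 and 0.26.

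Marco, Cdh22 and Gm5084 were past the threshold in lung although sorted control AT2 cells held less of them than control lung. Marco, a scavenger receptor of macrophages, stood at 18.5, 24.3, 19.2, 15.9 and 12.6 CPM in control lung and at 7.65, 4.65, 7.05, 10.4 and 7.18 CPM in lung labelled Etv5KO. The groups did not overlap and the log2 difference was -1.29 (SE 0.21, adjusted p = 0.0167). The 19 other macrophage, monocyte and dendritic cell markers did not pass. Their list had a median of -0.10 and summed to 1466 to 1899 CPM in controls and 1353 to 1801 CPM in the other group, and Chil3, Csf1r and Mrc1 had log2 differences of -0.22, -0.27 and 0.12. In AT2 libraries, sorted to be free of CD45, Marco lay between 0.415 and 0.977 CPM in controls and between 0.206 and 0.634 CPM in the others (adjusted p = 0.21). Cdh22, a cadherin, rose from 2.29, 2.48, 2.25, 1.38 and 2.60 CPM to 5.45, 6.81, 7.10, 4.06 and 5.52 CPM in lung. Its groups did not overlap (log2 difference 1.41, adjusted p = 0.00681), and it was at most 0.0593 CPM in control AT2 libraries and 0.211 CPM in those labelled Etv5KO. Gm5084, a gene of unknown function, rose from 0.323 ± 0.094 to 1.21 ± 0.48 CPM in lung (log2 difference 1.86, adjusted p = 0.0366) and had no count in the 4 control AT2 libraries, which allows up to 0.0322 CPM (3 counts over the 4 libraries, counting error only). Cdh22 and Gm5084 were too low to be tested in AT2 cells. The Marco call was lost without control library 3 or the library labelled Etv5KO 3 or 5 (adjusted p up to 0.0563), and that of Gm5084 without control library 2, 3, 4 or 5 or Etv5KO 1, 2, 3 or 5 (up to 0.132) or with limma-voom (0.0768). Which cells these genes come from was not tested.

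In the lists of processes, 16 of 22 had no member past the threshold with edgeR, with medians between -0.32 for chemokines and the NF-kB response and 0.35 for the MHC class II pathway. Of their 250 entries, 31 had an unadjusted p under 0.05, DESeq2 passed 8 (Cd74, H2-Aa, Cxcl15, Gclc, Tgfb3, Bmp4 and, in 2 lists, Ccnd1) and limma-voom 1 (Cxcl15). Of all 17098 genes tested, 944 (5.52%) had an unadjusted p under 0.05. Of the same genes edgeR passed 71, DESeq2 197 and limma-voom 71. Among 20 ETS factors none passed (median -0.06), and Ets1, Ets2 and Elk3, the most abundant, had log2 differences of -0.14, -0.10 and -0.04. None of 20 genes of FGF signalling, ERK feedback and ERK targets passed (median 0.02): Ccnd1, which encodes cyclin D1, had a log2 difference of 0.42 (adjusted p = 0.138 with edgeR and 0.00536 with DESeq2), and the FGF receptors Fgfr2 and Fgfr3 had 0.22 (adjusted p = 0.598) and 0.21 (adjusted p = 0.978). Cholesterol synthesis (0 of 20, median 0.16) and the cell cycle (0 of 20, median 0.28) also held none. In the lysosome and lamellar body list, Npc2, the lysosomal cholesterol-binding protein, was the only rise. It stood at 906.8, 995.0, 1097, 1121 and 1030.0 CPM in control libraries and at 1448, 1538, 1253, 1675 and 1498 CPM in those labelled Etv5KO. The groups did not overlap and the log2 difference was 0.53 (SE 0.09, adjusted p = 0.0322), but the call was lost without any 1 control library or without Etv5KO 1, 2, 4 or 5 (adjusted p up to 0.0918) and in the fit with all 19 libraries (0.0911). The other member past the threshold was Dram1 (-0.42), and the median of the 20 genes was 0.01. Lcn2 was the 1 of 12 tested past the threshold in the acute phase and alveolar defence list, and Mfsd2a the 1 of 10 among iron, retinoid and nutrient carriers.

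The same genes were then looked up in sorted AT2 cells. There 1474 of 14939 genes tested passed (9.87%; 751 higher, 5.03%, and 723 lower, 4.84%; 894 higher and 482 lower when libraries were scaled by their size alone), and among the 14550 genes tested in both sets of libraries 9.77% passed in AT2 cells and 0.474% in lung. Of the 71 genes past the threshold in lung, 65 also passed in AT2 cells in the same direction, 30 higher and 35 lower, and none in the opposite direction. The overlap is 91.5% of the lung genes and 4.41% of the AT2 genes. The 2 comparisons share no library, but the labels do not say whether they share mice. Slc26a4, Npc2, Thbs3 and Marco were tested in AT2 cells and did not pass (adjusted p of 0.129, 0.0744, 0.0657 and 0.21), and Cdh22 and Gm5084 were not tested there. For these 6 the difference between the lung and AT2 effects did not pass either (adjusted p of 0.67, 0.997, 0.808, 0.868, 0.995 and 0.883), so they are not shown to differ between lung and AT2 cells. For Cdh22 (SE of the difference 2.435) and Gm5084 the AT2 counts were too low for this test to decide. Thbs3, a thrombospondin, rose from 92.0 ± 8.83 to 140 ± 20.7 CPM in lung (log2 difference 0.60, adjusted p = 0.0269), and lost that call without control library 3, 4 or 5 or the library labelled Etv5KO 1 or 3 (adjusted p up to 0.0894).

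Fold changes of the shared genes were smaller in lung in 48 of 65, a count given as a description with no test. For Acoxl they were -2.62 in lung and -2.65 in AT2 cells (difference -0.05, adjusted p = 0.99), and for Bex2 -2.71 and -2.62 (difference 0.08, adjusted p = 0.989). The difference between the effects passed for 7 of the 71 genes, beside 1.59% of 17698 genes tested (0.791% with the higher and 0.802% with the lower effect in AT2 cells), and in all 7 the AT2 effect was the larger. Nupr1 fell by 0.49 in lung and by 2.25 in AT2 cells (adjusted p of the difference 0.000494), and Elovl1 by 1.21 and by 2.12 (0.0189). For Arg2, the mitochondrial arginase, the log2 differences were -0.97 and -2.07 (0.0109). The others were Aif1l, Acot7, S100a14 and St3gal5. With 1 library left out, the difference stayed past the threshold for Nupr1, Arg2 and St3gal5; Elovl1 and Aif1l lost it without control AT2 library 1 or 3 (adjusted p up to 0.07 and 0.0595), S100a14 without any of 14 libraries (up to 0.102) and Acot7 without any of 15 (up to 0.148) of 19. The lung call of Arg2 was itself lost without control library 3, 4 or 5 or the library labelled Etv5KO 1, 2, 3 or 5 (up to 0.0733). Genes were picked by their lung effect, which this difference also contains. In absolute terms the difference in lung, in CPM scaled over all 19 libraries, was 14.5% of that in AT2 cells at the median of the 65 genes (quartiles 11.8% and 19.2%, range 3.12% for C2cd4b to 82.3% for Clec16a). Among control libraries the level in AT2 cells was a median of 6.1 times that in lung for the 71 genes and 0.970 times for all genes tested. It was at least 4 times in 54 of the 71, beside 3.56% of all genes tested, and under 1 in 3, Marco, Cdh22 and Gm5084.

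**Figure D3:**
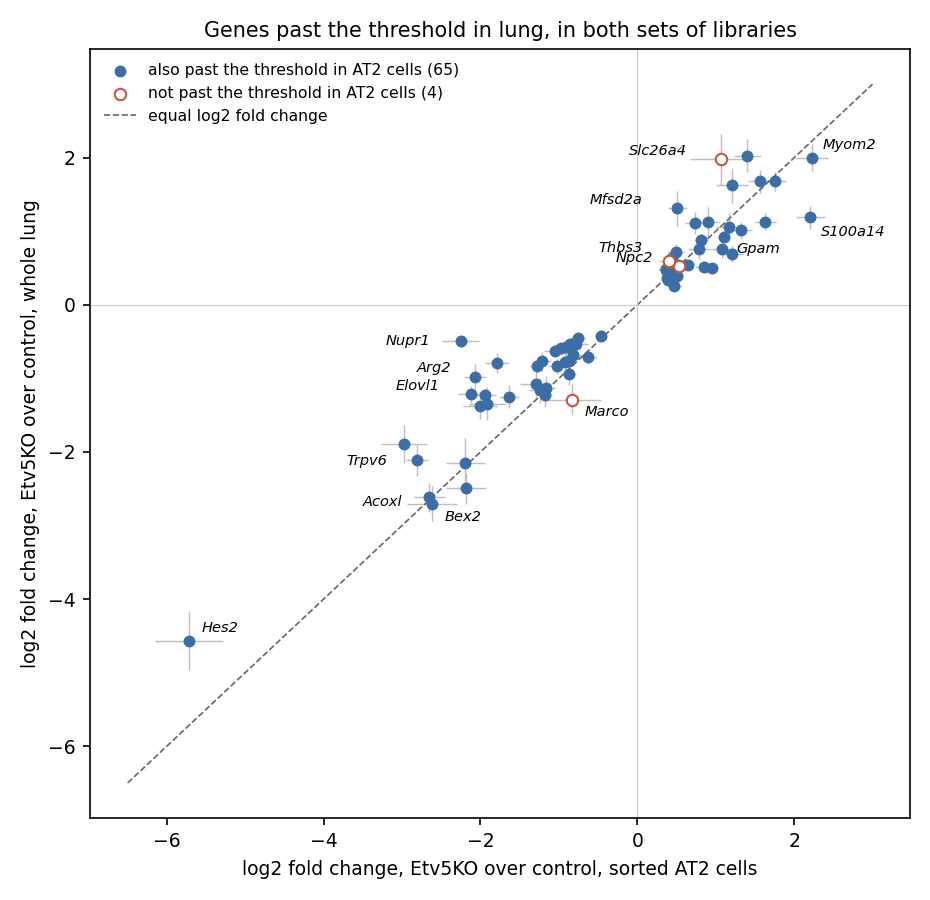
Log2 fold change (libraries labelled Etv5KO over control) of the 69 genes past the threshold in lung that were tested in both sets, in sorted AT2 cells (x axis) and whole lung (y axis), with bars of 1 SE. Filled points also passed in AT2 cells (65), open points did not (4), and the dashed line marks equal values. Every point has the same sign on both axes, and 48 of the 65 filled points have the smaller change in lung.

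Read from the AT2 side, most genes that passed in sorted cells did not pass in lung. Over all 17098 genes tested in lung, 0.205% passed as higher and 0.211% as lower. Of 751 higher in AT2 cells, 724 were tested in lung and 30 passed. Of 723 lower, 698 were tested and 35 passed. Their lung differences nevertheless leaned the same way: 81.2% of the higher genes had a positive lung difference and 86.1% of the lower genes a negative one, where 46% of all genes tested in lung were positive. The median log2 difference was 0.55 in AT2 cells and 0.15 in lung for the higher genes, and -0.63 and -0.14 for the lower. The count past the threshold in lung went with how much more of a gene AT2 cells held than lung in controls. At a ratio of at least 4, 20 of 66 higher and 32 of 126 lower genes passed in lung, and at a ratio under 1 it was 0 of 335 and 0 of 194. The ratio uses the control libraries of both comparisons, so these counts are a description with no test.

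The genes with the largest AT2 differences showed this split by name. Of the 10 largest falls in AT2 cells, Hes2, Trpv6, Acoxl and Bex2 passed in lung, and control AT2 cells held at least 6.75 times as much of each as control lung. The other 6 did not pass and had ratios between 0.524 and 3.19. Adamts1, a secreted metalloprotease, had a log2 difference of -4.39 in AT2 cells and -0.30 in lung (155 ± 43.9 and 126 ± 35.8 CPM, adjusted p = 0.978). Rbp4, the retinol carrier, had -4.11 and -0.09 (12.8 ± 2.18 and 12.1 ± 1.49 CPM in lung, adjusted p = 0.978), and Trf, the iron carrier transferrin, -3.73 and -0.26 (adjusted p = 0.307 with edgeR and 0.0325 with DESeq2). Tgfbi, a matrix protein induced by TGF-beta, stood at 168 ± 29.6 CPM in both lung groups while its log2 difference in AT2 cells was -2.91. Gdpd2 and Ppp1r3c, a glycogen-targeting subunit of protein phosphatase 1, completed the 6. Of the 10 largest rises in AT2 cells, S100a14 and Myom2 passed in lung. Angpt2, the vessel ligand angiopoietin 2, Cyp1b1, a cytochrome P450, Ncf1, a subunit of the NADPH oxidase, and Ano1, a calcium-activated chloride channel, had log2 differences of -0.03, 0.05, 0.21 and 0.47 in lung; DESeq2 passed Ano1 there (adjusted p = 0.0338). Ccdc88b, Emp1, Rasl12 and Entpd3 did not pass in lung either, and the ratios of these 8 genes were 0.0567 to 1.22. The difference between the AT2 and lung effects passed for 6 of the 10 falls and 9 of the 10 rises; these genes were chosen by the AT2 effect that the difference contains.

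**Figure D4:**
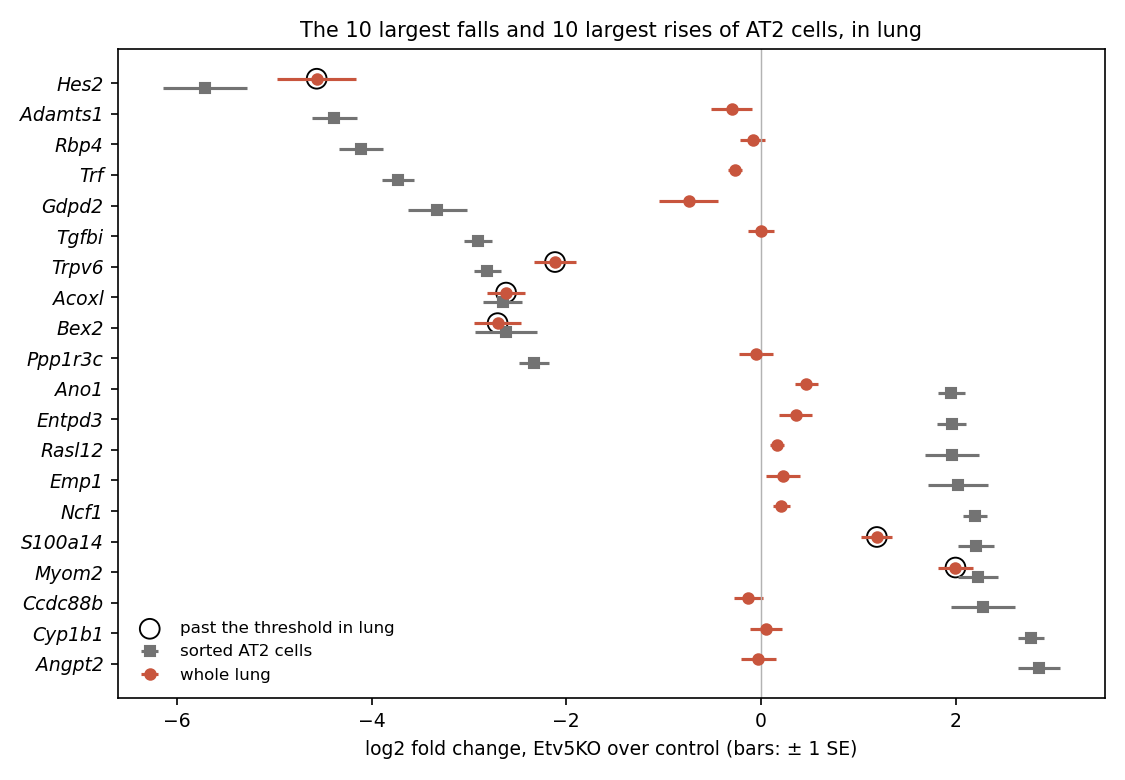
Log2 fold change (libraries labelled Etv5KO over control, bars of 1 SE) of the 10 largest falls and 10 largest rises of sorted AT2 cells, in AT2 cells (grey squares) and whole lung (red circles). Black rings mark the 6 genes past the threshold in lung: Hes2, Trpv6, Acoxl, Bex2, S100a14 and Myom2. The other 14 lie between -0.74 and 0.47 in lung.

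Neighbours of Etv5 on chromosome 16 also differed. The gene that follows Etv5 in the RefSeq gene order, Dgkg, a diacylglycerol kinase, stood at 10.9, 13.5, 10.1, 14.1 and 11.3 CPM in control lung and at 23.8, 23.1, 21.99, 29.3 and 22.7 CPM in lung labelled Etv5KO. The groups did not overlap, and Dgkg rose 2.02-fold (log2 difference 1.01, SE 0.11, adjusted p = 0.00134). The noncoding gene 9230117E06Rik, which lies across Dgkg, rose from 2.24 ± 0.34 to 7.26 ± 1.41 CPM (log2 difference 1.68, adjusted p = 0.000368). Gm15651, which also lies across Dgkg, had a log2 difference of 0.77 (adjusted p = 0.184); it passed with DESeq2 (0.0259), in the fit with all 19 libraries (0.0424) and without control library 2 (0.0468). Reads of these 3 genes cannot be told apart where they overlap. In AT2 cells Dgkg and 9230117E06Rik had log2 differences of 1.32 and 1.57, both past the threshold. On the other side of Etv5, Tra2b, Igf2bp2, Ndufa11b and Senp2 had log2 differences of -0.01, -0.08, 0.19 and -0.05 in lung. None of them was past the threshold. Gng5-ps on that side, and Mir8095 and Mir6362 on the side of Dgkg, were too low to be tested. A difference in linked alleles and an effect of the Etv5 alleles on these genes cannot be told apart in this design.

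**Figure D5:**
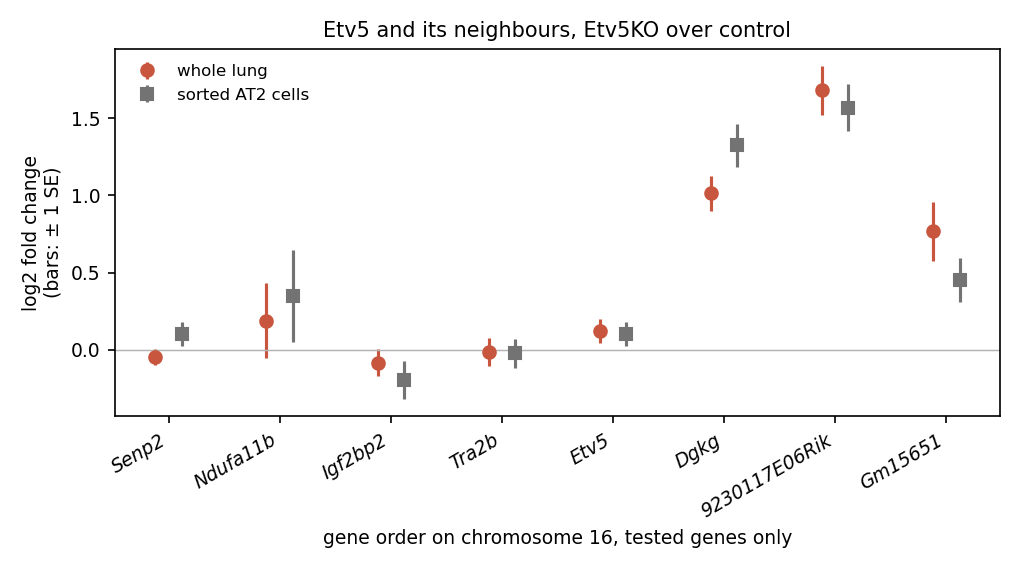
Log2 fold change (libraries labelled Etv5KO over control, bars of 1 SE) of Etv5 and its tested neighbours in gene order along chromosome 16, in whole lung (red circles) and sorted AT2 cells (grey squares). Etv5 itself lies at 0.12 and 0.10, and Dgkg and 9230117E06Rik at 1.01 and 1.68 in lung.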

How the data were processed

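The members and gene lists were chosen with earlier results of these data known. Per the file headers, the authors' count gives reads aligned uniquely to a gene model, and the second deposited value is RPKM divided by the authors' size factor for each sample; it was used for levels between genes and to recover those factors. GSNAP and build mm9 are named in the submitters' processing notes. The sources used here give neither annotation release, counting tool nor use of strand. Of 36528 Entrez gene IDs, 31049 were named from RefSeq (GRCm38.p6) and 74 from GENCODE; the named genes held 98.8% of counts. Promoter sequences and coordinates are RefSeq's. All columns were mapped to samples; 0 were left over.

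Counts were tested with edgeR 4.0.16 in R 4.3.3 (limma 3.58.1 and DESeq2 1.42.0 for alternatives): filterByExpr with a minimum count of 10 and a minimum total of 15, TMM scaling, the two-sided quasi-likelihood F test, Benjamini-Hochberg adjustment over all genes tested and a threshold of 0.05. Genes that rose or fell are those past it. Lung, AT2 cells and the difference of their effects (an interaction over all 19 libraries) were fitted separately. CPM values are means ± SD scaled within the 10 lung libraries; AT2 levels and ratios between AT2 cells and lung are scaled over 19. Intervals are at 95%, with standard errors derived from F. Replicates are numbered in accession order. No 2 lung libraries of a group were duplicates (chi-square per degree of freedom 12.2 to 43.9). The fit was tested on simulated data.

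Named genes were Etv5, the 15 largest rises and 15 largest falls in lung at a mean of at least 1 CPM, list members past the threshold and the 3 most abundant of each list, the 10 largest rises and 10 largest falls in AT2 cells at a mean of at least 5 CPM, the 10 smallest p of the interaction, lung genes not past the threshold in AT2 cells, and 5 neighbours of Etv5 on each side. Not every abundant list member is printed. Ighm and Trbc2 were not matched by symbol. Alternatives were other scalings and tools, other filters on low counts, a test against a fold change of 1.2, all 19 libraries in 1 fit, and each library left out.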

Additional observations from a re-analysis of the deposited data

Results flagged for a closer look

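In 142 groups of 5 lung libraries, of genes named here, 6 had a library that stood far from the other 4. Chance flags about 5% of groups, and 6 of 142 is not above that share, so these are given as values only. Control library 2 held 0.535 CPM of Gm31418 (the other controls 0.242 to 0.305), control library 4 held 1.38 CPM of Cdh22 (2.25 to 2.60) and control library 5 held 2.11 CPM of Zmat4 (3.25 to 3.57). Among libraries labelled Etv5KO, number 4 held 29.3 CPM of Dgkg (the others 21.99 to 23.8), number 1 held 7.07 CPM of Lypd6b (5.66 to 6.04) and number 2 held 2.64 CPM of C2cd4b (1.46 to 1.71).

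The genotype effect differed between AT2 cells and lung, by the edgeR interaction, for 24 named genes. Of all 17698 genes tested, 282 passed (1.59%). Named genes were picked in part by the p of this difference and by the AT2 and lung effects it contains. The count of 24 is thus a description with no test. Values are the AT2 minus the lung log2 difference. It was lower in AT2 cells for Adamts1 (-4.10), Rbp4 (-4.04), Trf (-3.47), Tgfbi (-2.92), Gdpd2 (-2.59), Ppp1r3c (-2.29), Nupr1 (-1.77), Arg2 (-1.10), Aif1l (-1.01), Elovl1 (-0.92) and Acot7 (-0.72). It was higher for Cacna1h (3.89), Angpt2 (2.88), Cyp1b1 (2.71), Ccdc88b (2.40), Ncf1 (1.98), Rasl12 (1.80), Emp1 (1.79), Entpd3 (1.59), Ptp4a3 (1.55), Ano1 (1.48), Stom (1.36), S100a14 (1.01) and St3gal5 (0.45). Adjusted p ran from 5.76e-10 for Trf to 0.047 for S100a14.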

How the results depend on the processing

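In lung, 71 genes passed; DESeq2 passed 197, a test against a fold change of 1.2 passed 35, and a fit with all 19 libraries passed 122. Leaving out 1 library gave 44 to 80. In AT2 cells the count of 1474 became 624 against a fold change of 1.2 and 1062 to 1587 with 1 library left out. For the difference between AT2 and lung effects the count of 282 became 456 with DESeq2, 128 against a fold change of 1.2, and 198 to 319 with 1 library left out. Library size alone, the authors' size factors, limma-voom, no filter on low counts and a minimum of 1 CPM in 5 libraries gave 71 to 91 in lung. None of the 71 genes changed sign under any of these settings, and 33 passed under all of them; the test against a fold change of 1.2 ended the call for 36 and limma-voom for 4. Pgm1 lost its call with library size alone (adjusted p = 0.0507) and Fig4 with no filter (0.0683) or all 19 libraries (0.0752). No paired analysis was possible because the labels carry no replicate numbers and do not tie libraries to mice. Genes at a few reads per library, such as Gm31418, are measured with large counting error at this depth. The cause of the different counts was not tested.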

Other observations

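Several genes from different lists lay just outside the threshold in lung. They were chosen after their values were seen and are given as values. Chil1, a chitinase-like protein of AT2 cells, averaged 834 ± 103 CPM over controls and 461 ± 123 CPM over libraries labelled Etv5KO (SD, n = 5 each) (log2 difference -0.86, adjusted p = 0.0579). Cxcl15, a lung chemokine, averaged 1964 ± 142 and 1329 ± 212 CPM (-0.56, adjusted p = 0.0638). DESeq2 and the fit with all 19 libraries passed both. Areg, the EGF receptor ligand amphiregulin, had a log2 difference of 1.77 (adjusted p = 0.0651), Il33, the alarmin interleukin 33, 0.76 (adjusted p = 0.0932), Gclc, the rate-limiting enzyme of glutathione synthesis, 0.66 (adjusted p = 0.0619), and Tgfb3, a TGF-beta ligand, 0.60 (adjusted p = 0.0579). DESeq2 passed these 4 as well. Gclc was the 1 positive gene of 13 tested in the NRF2 and glutathione list (median -0.13). In the list of Tgfb3, the TGF-beta response, 5 of 14 were positive (median -0.045).

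Genes of the MHC class II pathway, which presents antigen to CD4+ T cells, were all positive in lung, 8 of 8. Of all genes tested 46% were positive. Several other lists also leaned strongly 1 way: 19 of 20 genes were positive in cholesterol synthesis and in the cell cycle. Mesothelial markers had 5 of 5 positive and endothelial markers 1 of 16. Genes of a list are not independent, so the 8 of 8 is a description with no test. The median of the list was 0.35 and none passed with edgeR (lowest adjusted p 0.211). An unadjusted p under 0.05 was seen for 6, beside 5.52% of all genes tested. DESeq2 passed Cd74 (adjusted p = 0.0141) and H2-Aa (0.0186). Cd74, the invariant chain, stood at 1755 ± 246 and 2376 ± 274 CPM (log2 difference 0.44, adjusted p = 0.245), and in sorted AT2 cells it differed by 0.45 (adjusted p = 0.00799). The summed level of the 8 genes was 2698 to 3771 CPM in control lung and 3885 to 5046 CPM in lung labelled Etv5KO. These ranges did not overlap, as in 1.55% of single genes tested. Cd74 was the most abundant of the 8 and weighed most in the sum. The class II list was singled out after its values were seen. Red blood cell genes summed to 178 to 2526 CPM in controls and 688 to 1540.0 CPM in the others. Within that list Hbb-bs and Hbb-b1 had the same mean in lung (373.5 CPM) and the same log2 difference (-0.141). Hbb-bt and Hbb-b2 were also alike (85.11 CPM, -0.132). The sum thus appears to count the same reads under both IDs of each pair.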
